A study of Mus musculus with 6 samples.

Results

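Mitochondria carry a small circular genome of their own, and all genes listed on it were examined here in N2a cells after knockdown of circRtn4. The members were every row of the deposited gene table placed on chromosome MT, which gave 37 of the 54532 genes listed. They were 13 protein-coding genes, 2 rRNA genes and 22 tRNA genes. The plus strand of the annotation held 28 of them, and the minus strand held the other 9, which were 8 tRNA genes and mt-Nd6. All 37 had the same coordinates in GENCODE M21 on the mouse build GRCm38.

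N2a, or Neuro2A, is an established line of mouse neuroblastoma cells, labelled as strain C57BL/6 and kept in MEM with serum. By the study's general methods, N2a cells were changed after transfection to a low-serum medium with retinoic acid, which induces differentiation, before they were harvested; the labels name only the growth medium and do not say whether these cells were so treated. It was transfected with si-NC, the control siRNA, in 3 libraries and with si-circRtn4, an siRNA against the circular RNA circRtn4, in the other 3. Both groups were therefore transfected, and no untransfected library was compared. The labels do not say whether the libraries came from separate cultures, so each p-value measures the spread between these libraries, which may be technical. The values are FPKM, fragments scaled by gene length and by library depth, so that levels of different genes can be compared. The libraries held 14100818 to 14748929 recovered reads for si-NC and 13541198 to 15122063 for si-circRtn4. Rtn4, the gene from which circRtn4 derives, was at 61.0, 66.8 and 69.8 FPKM with si-NC and at 50.1, 56.7 and 62.7 FPKM with si-circRtn4. These ranges overlapped (limma adjusted p = 0.216, or 0.0447 with replicate number as a block), and gene FPKM do not separate circular from linear Rtn4 RNA. Of the N2a markers, Tubb3, Phox2a, Stmn2 and Elavl4 were above 10 FPKM in every library. Phox2a fell (log2 fold change −0.53, limma adjusted p = 0.0210) and Elavl4 rose (0.80, limma adjusted p = 0.0252), and the part of this in the results was not tested. The 8 markers of other cells were at 4.60 FPKM or lower in every library.

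Mitochondrial DNA is transcribed from both strands as long RNAs that span many genes. The tRNAs lie between most of the mRNAs and rRNAs, and cutting them out releases the RNAs on either side. The 13 mRNAs encode core subunits of the respiratory chain complexes I, III and IV and of ATP synthase, while the rRNAs and tRNAs serve the mitochondrial ribosome that translates them. Pieces of mitochondrial DNA have also been copied into nuclear chromosomes during evolution, and a read from a recent copy can be hard to assign.

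A nuclear copy of this kind bears on which values can be read. The table lists 7 genes on the minus strand of chromosome 1 between 24611535 and 24616197 (GRCm38), annotated as pseudogenes, that match mitochondrial bases 6381 to 11042. In the GENCODE M21 transcripts, 5 of the 7 had no mismatch to their mitochondrial partner over the bases compared. The starts of 3 pairs, each 60 bases, show how alike they are. In mt-Nd3 (complex I) and its copy, capitals mark the 1 base that differs over 345 bases, T3C, counted from 1 at the first base of the mitochondrial gene.

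mt-Nd3 chrMT:9459-9518 (plus): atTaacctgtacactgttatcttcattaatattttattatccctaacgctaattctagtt

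Gm28438 chr1:24613060-24613119 (minus): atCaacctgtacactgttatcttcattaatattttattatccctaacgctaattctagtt

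The mt-Co3 pair (complex IV) holds no capitals because it was identical over all 783 bases compared.

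mt-Co3 chrMT:8607-8666 (plus): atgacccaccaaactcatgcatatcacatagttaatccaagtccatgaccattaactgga

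Gm28437 chr1:24613912-24613971 (minus): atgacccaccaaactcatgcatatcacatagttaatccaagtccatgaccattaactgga

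For mt-Co1 (complex IV) the copy starts inside the gene. All 6 differences over 492 bases lay near that edge (T1056A, C1057T, A1059G, A1060G, C1062A and A1066T, counted from the first base of mt-Co1, the copy's base given last) and are in capitals.

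mt-Co1 chrMT:6381-6440 (plus): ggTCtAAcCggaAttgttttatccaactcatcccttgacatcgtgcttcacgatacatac

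Gm29216 chr1:24616138-24616197 (minus): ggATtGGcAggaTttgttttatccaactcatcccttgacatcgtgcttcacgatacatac

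The copies Gm28661 of mt-Co2, Gm10925 of mt-Atp6, Gm10222 of mt-Nd4l and Gm28439 of mt-Nd4 had no mismatch over 681, 678, 294 and 876 bases. Inside the copied span lie 6 whole mRNA genes (mt-Co2, mt-Atp8, mt-Atp6, mt-Co3, mt-Nd3 and mt-Nd4l) and 5 tRNA genes. The copy holds 63.6% of mt-Nd4 and 31.8% of mt-Co1, and the other 5 mRNA genes and both rRNA genes lie outside it. How reads that match both places were assigned is not given in the sources used here. The genes inside the span are therefore described apart from the rest, and their values are uncertain.

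Levels of the mRNAs followed this map. The 5 mRNA genes outside the copied span ranged from 762 to 5967 FPKM over the 6 libraries and the 2 partly inside it from 899.9 to 4537 FPKM. The 6 inside it ranged from 2.02 to 159 FPKM, so the groups of genes did not meet. With si-NC the order of the means was mt-Cytb, mt-Co1, mt-Nd1, mt-Nd2, mt-Nd5, mt-Nd4, mt-Nd6, mt-Rnr2, mt-Rnr1, mt-Co2, mt-Co3, mt-Atp6, mt-Nd4l, mt-Nd3 and mt-Atp8. Among neighbours in that order, mt-Nd2 and mt-Nd5 overlapped in both groups. Other overlaps with si-NC were those of mt-Co2 with mt-Co3, mt-Co3 with mt-Atp6 and mt-Nd4l with mt-Nd3. With si-circRtn4, mt-Nd5 with mt-Nd4 and mt-Nd4 with mt-Nd6 also overlapped.

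**Figure D1:**
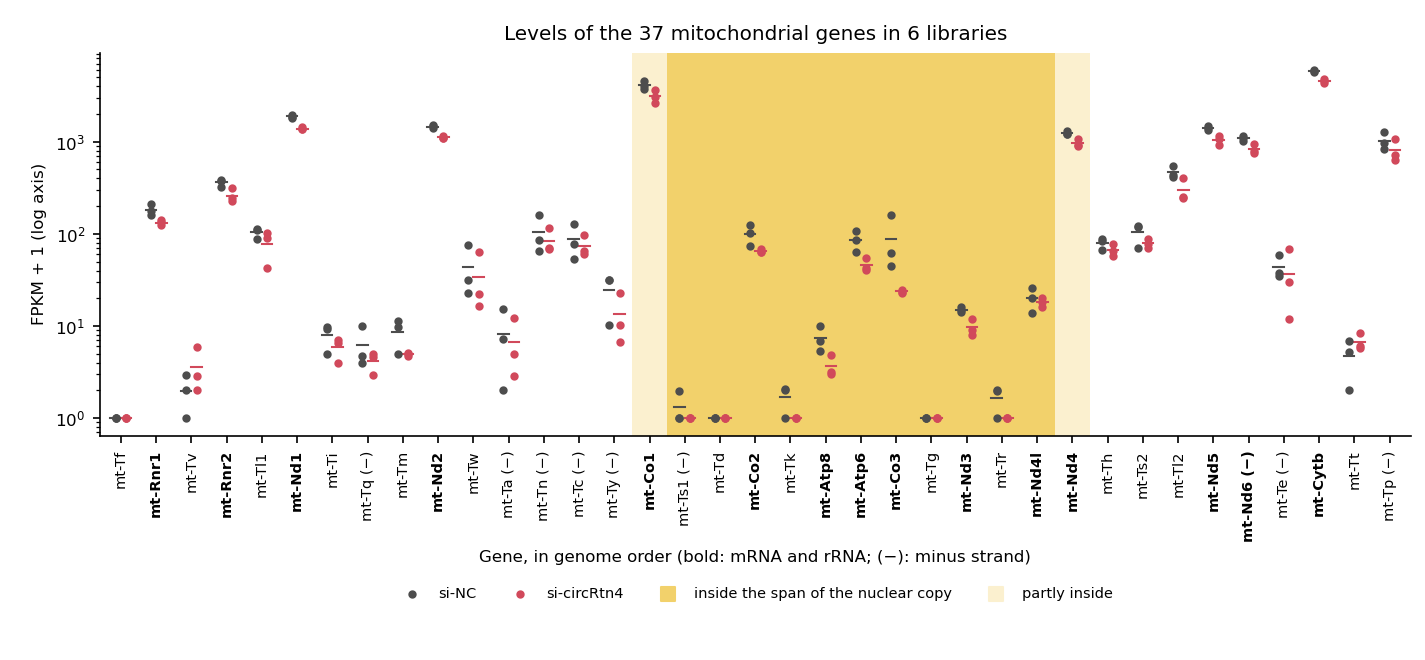
FPKM + 1 on a log axis for the 37 mitochondrial genes in genome order, with a point for each library and a dash at the mean of 3 libraries. Genes inside the span of the nuclear copy (dark shading) stayed at or below 159 FPKM, whereas every mRNA gene outside it or partly inside it (light shading) was at 762 FPKM or more.

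Mitochondrial RNA was lower with si-circRtn4 than with si-NC. The 37 genes together took 2.35%, 2.27% and 2.13% of recovered reads with si-NC and 1.94%, 1.71% and 1.56% with si-circRtn4. The groups did not overlap, and the mean with si-circRtn4 (1.74% ± 0.193, SD, n = 3) was 77.1% of that with si-NC (2.25% ± 0.113, SD, n = 3). Since the cells were measured in bulk and each library is a share of a fixed total, less mitochondrial RNA per cell and more of other RNA cannot be told apart, nor can fewer cells of a type and less RNA per cell.

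In the limma test of log2(FPKM + 1), which takes in genes whose mean over the 6 libraries reaches 1 FPKM, 31 of the 37 genes were tested. Of these, 5 fell at an adjusted p under 0.05 (mt-Nd1, mt-Nd2, mt-Nd3, mt-Atp6 and mt-Co3), where 4.82% of all 12749 genes tested fell. None of the 31 rose by limma, where 4.36% of all genes did, and at an unadjusted p under 0.05 there were 0 higher and 16 lower, where 13.1% and 12.8% of all genes were. No mitochondrial gene rose with limma-voom either, where 7.08% of all genes did. The estimate was below 0 for 29 of the 31 genes, and their median log2 fold change was −0.43, beside 0.0020 over all genes tested. These genes share long RNAs and are scaled by the same library totals, so counts of them are not counts of independent results. For 15 of the 31, every si-circRtn4 library was below every si-NC library, where 15.5% of all genes tested showed this. Libraries of the same number deviated together, and with replicate number as a block 15 of the 31 fell, where 9.75% of all genes fell. With limma-voom on recovered reads, without a block, the number was 12, where 5.69% of all genes fell. The genes called depended on the libraries used. Leaving out si-NC replicate 1, 2 or 3 gave 3, 3 and 1 genes. Leaving out si-circRtn4 replicate 1, 2 or 3 gave 5, 1 and 2 genes. Without si-circRtn4 replicate 1 the 5 were not the same genes. In that fit mt-Nd2, mt-Atp6 and mt-Co3 missed the threshold (limma adjusted p = 0.0531, 0.108 and 0.117), while mt-Nd4, mt-Nd6 and mt-Rnr2 passed it.

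**Figure D2:**
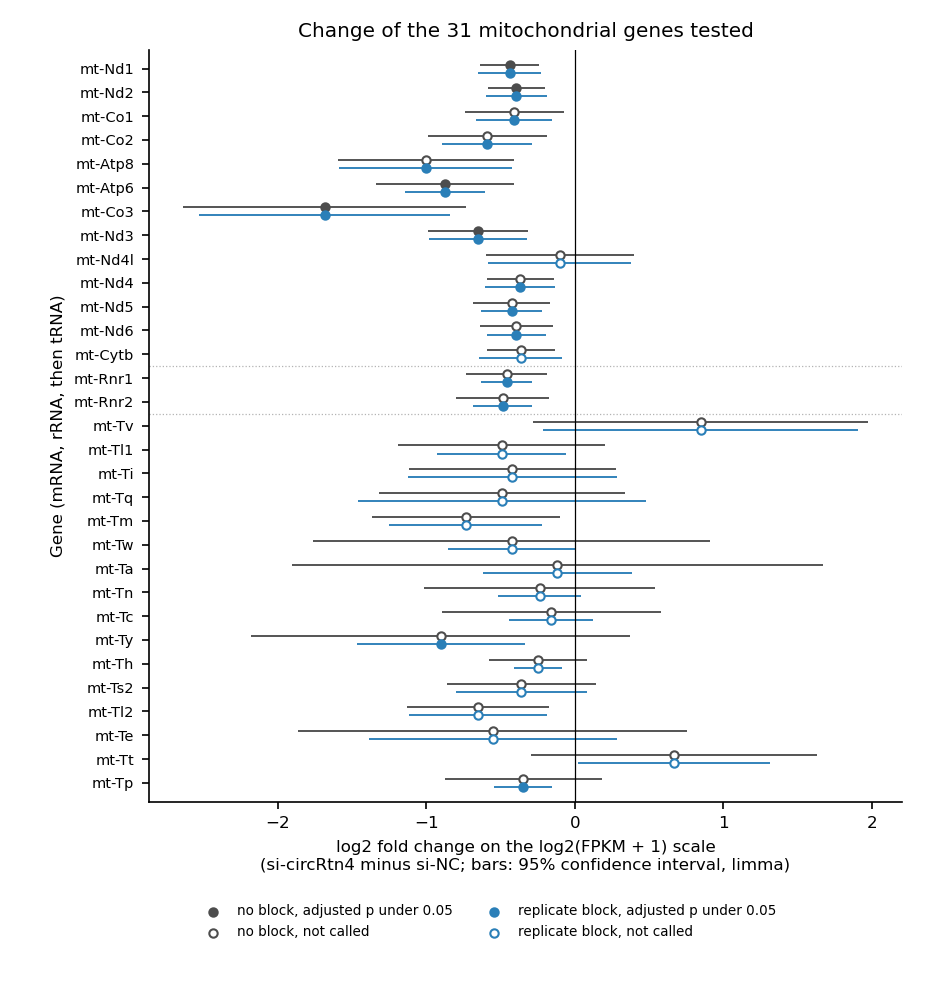
Log2 fold change (si-circRtn4 minus si-NC) of the 31 genes tested, with 95% confidence intervals from limma without a block (grey) and with replicate number as a block (blue), where filled points have an adjusted p under 0.05. All 13 mRNA and both rRNA estimates lay below 0, and the tRNA intervals were mostly wider.

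The mRNA genes outside the copied span carried most of the reads and moved by similar amounts. Complex I subunit mt-Nd1 (chrMT:2751-3707, plus strand) was at 1825, 1951 and 1863 FPKM with si-NC and at 1429, 1367 and 1361 FPKM with si-circRtn4. The highest si-circRtn4 library was thus under the lowest si-NC library, and the mean was 73.7% of that with si-NC (log2 fold change −0.44 ± 0.085, SE, limma adjusted p = 0.0211). The call was lost without si-NC replicate 1, 2 or 3 (limma adjusted p = 0.0590, 0.0918 and 0.0863) and without si-circRtn4 replicate 2 (0.0861). The next gene of this complex, mt-Nd2 (chrMT:3914-4951), was at 1393, 1504 and 1484 FPKM against 1146, 1095 and 1093 FPKM. It was also lower in every si-circRtn4 library, at 76.1% of the si-NC mean (−0.39 ± 0.084, SE, limma adjusted p = 0.0295). The call of mt-Nd2 was lost whichever library was left out (limma adjusted p = 0.0531 to 0.115) and after rescaling to TPM (0.0665).

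The most abundant member was mt-Cytb (chrMT:14145-15288), the only complex III subunit encoded in mitochondria. It was at 5874, 5967 and 5740 FPKM with si-NC and at 4775, 4552 and 4335 FPKM with si-circRtn4. The groups were well apart, at 77.7% of the si-NC mean, but the log2 fold change of −0.36 did not pass the test (limma adjusted p = 0.0612, or 0.0778 with the block). It passed with limma-voom (adjusted p = 0.0152), while quantile normalization, which gives each rank the same value in every library, left it no change. mt-Co1 (chrMT:5328-6872), the catalytic subunit of complex IV, was at 4537, 4060 and 3709 FPKM against 3626, 3030 and 2656 FPKM. Its groups did not overlap in FPKM but came close (3709 FPKM in the lowest si-NC library and 3626 FPKM in the highest si-circRtn4 library), and the call differed between fits (log2 fold change −0.41, limma adjusted p = 0.123, or 0.0472 with the block). With quantile normalization its log2 fold change was −0.15.

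Complex I subunits mt-Nd5 and mt-Nd4 follow downstream. mt-Nd5 (chrMT:11742-13565) was at 1489, 1391 and 1327 FPKM with si-NC and at 1154, 1071 and 916 FPKM with si-circRtn4. mt-Nd4 (chrMT:10167-11544) was at 1213, 1306 and 1198 FPKM against 1060, 899.9 and 926 FPKM. Neither gene's groups overlapped, at 74.7% and 77.7% of the si-NC mean, and both missed the threshold without the block and passed it with the block (limma adjusted p = 0.0552 and 0.0239 for mt-Nd5, and 0.0585 and 0.0492 for mt-Nd4). Both also passed with limma-voom, at an adjusted p of 0.0257 and 0.0282, and mt-Nd4 without si-circRtn4 replicate 1, at 0.0490.

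mt-Nd6 (chrMT:13552-14070), a complex I subunit, is the one mRNA gene on the minus strand. It was at 1139, 1101 and 1021 FPKM with si-NC and at 934, 792 and 762 FPKM with si-circRtn4. Its libraries did not overlap either, at 76.3% of the si-NC mean (log2 fold change −0.39, limma adjusted p = 0.0596, or 0.0262 with the block). It also passed with limma-voom (adjusted p = 0.0329) and without si-circRtn4 replicate 1 (limma adjusted p = 0.0408). The percentage lay among those of the plus-strand mRNA genes outside the span, 73.7% to 77.7%. mt-Nd6 shares 14 bases with mt-Nd5 on the other strand, and whether strand was kept in the libraries is not given in the sources used here, so reads from antisense RNA of a gene cannot be told apart from its own.

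The 2 rRNA genes were lower too, and their calls depended on the fit. The small-subunit rRNA mt-Rnr1 (chrMT:70-1024) was at 158, 176 and 212 FPKM with si-NC and at 123, 132 and 139 FPKM with si-circRtn4. The large-subunit rRNA mt-Rnr2 (chrMT:1094-2675) was at 386, 324 and 376 FPKM against 310.5, 227 and 242 FPKM. Every si-circRtn4 library was the lower in both, at 72.1% and 71.8% of the si-NC mean (limma adjusted p = 0.0520 without and 0.0130 with the block for mt-Rnr1, and 0.0644 and 0.0163 for mt-Rnr2). Both passed with limma-voom (adjusted p = 0.0140 and 0.0282). mt-Rnr1 also passed under 3 of the other scalings and without si-NC replicate 1 (limma adjusted p = 0.0369), and mt-Rnr2 without si-circRtn4 replicate 1 (limma adjusted p = 0.0314). By their means, both rRNAs were listed far below every mRNA gene outside or partly inside the copied span, and above those inside it. Their share of recovered reads was 0.0754% with si-NC and 0.0551% with si-circRtn4; the labels describe the extract as total mRNA, and a step that selects or removes RNA classes is not given in the sources used here.

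Without the 6 genes inside the span, the mRNA and rRNA genes numbered 9. All 9 had groups that did not overlap, where 15.5% of all genes tested were lower without overlap. Their log2 fold changes ran from −0.49 to −0.36. Of these 9, 2 fell without the block and 8 with it, where 4.82% and 9.75% of all genes tested fell. mt-Cytb was the exception under the block. The exact permutation test gave p = 0.1 for each, which is the smallest p that 3 libraries against 3 allow.

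The genes inside the copied span were spread more widely, from 25.8% to 90.2% of the si-NC mean, with a median log2 fold change of −0.76. The largest fall was that of mt-Co3 (chrMT:8607-9390), a core subunit of complex IV. It was at 61.4, 43.3 and 159 FPKM with si-NC and at 21.8, 23.7 and 22.6 FPKM with si-circRtn4. The si-NC libraries differed far more among themselves (SD 62.5) than the si-circRtn4 libraries (SD 0.950), and si-NC replicate 3 stood highest. The log2 fold change was −1.69 ± 0.41 (SE, limma adjusted p = 0.0443), and −1.15 without si-NC replicate 3 (limma adjusted p = 0.0146). The call was lost without si-NC replicate 1 (limma adjusted p = 0.0713) and without si-circRtn4 replicate 1, 2 or 3 (0.117, 0.115 and 0.102).

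ATP synthase subunit mt-Atp6 (chrMT:7927-8607) was at 62.4, 84.3 and 108 FPKM with si-NC and at 42.0, 39.3 and 53.9 FPKM with si-circRtn4. Its groups did not overlap, at 53.2% of the si-NC mean (log2 fold change −0.87 ± 0.20, SE, limma adjusted p = 0.0371). Its neighbour mt-Atp8 (chrMT:7766-7969), the other ATP synthase subunit, was at 5.85, 4.42 and 9.11 FPKM against 3.79, 2.20 and 2.02 FPKM. It too was lower in every si-circRtn4 library but rested on 13.5 reads per library on average, and its call depended on the fit (log2 fold change −1.005, limma adjusted p = 0.0510, or 0.0378 with the block, 0.0493 with a pseudocount of 0.1 and 0.0457 with quantile normalization). The 2 reading frames share 43 bases, shown here because a read in them fits both genes.

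Bases shared by mt-Atp8 and mt-Atp6, chrMT:7927-7969 (plus): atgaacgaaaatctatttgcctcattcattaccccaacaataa

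mt-Nd3 (chrMT:9459-9806) was at 13.1, 13.8 and 15.2 FPKM with si-NC and at 10.9, 7.02 and 8.10 FPKM with si-circRtn4. All si-circRtn4 libraries were lower, at 61.8% of the si-NC mean (log2 fold change −0.65 ± 0.14, SE, limma adjusted p = 0.0328). mt-Nd3 rested on 57.5 reads per library on average. Its call was lost after rescaling to TPM (limma adjusted p = 0.0590) and with limma-voom (adjusted p = 0.0745). It was also lost without si-NC replicate 1, 2 or 3 (limma adjusted p = 0.0590, 0.0935 and 0.0933) and without si-circRtn4 replicate 2 or 3 (0.0892 and 0.0910). Complex IV subunit mt-Co2 (chrMT:7013-7696) was at 123, 73.1 and 100.4 FPKM against 67.9, 62.1 and 61.8 FPKM. Its groups did not overlap, and its call depended on the fit (log2 fold change −0.59, limma adjusted p = 0.0750, or 0.0277 with the block and 0.0217 without si-NC replicate 2). It also passed with limma-voom (adjusted p = 0.0385).

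The exception among the mRNA genes was complex I subunit mt-Nd4l (chrMT:9877-10173). It was at 24.98, 12.8 and 19.2 FPKM with si-NC and at 15.1, 17.1 and 19.2 FPKM with si-circRtn4. The groups overlapped throughout, and the 95% interval of its log2 fold change of −0.10 ran from −0.60 to 0.40 (limma adjusted p = 0.815, exact permutation p = 0.7). This interval includes the estimates of the genes outside the span.

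The chromosome 1 copies were listed at levels that did not follow the number of mismatches. Gm28438, the copy of mt-Nd3 that differs by 1 base, was at 256, 243 and 278 FPKM with si-NC and at 199, 194 and 164 FPKM with si-circRtn4. This was 17.7 to 27.6 times the level of mt-Nd3 in the same library. Under the copy were listed 94.6% to 96.5% of the pair's reads. Which base the mitochondrial DNA of these cells carries there was not examined, so these reads were not shown to be nuclear. Gm29216 and Gm28439, the copies of parts of mt-Co1 and mt-Nd4, held at most 0.133% and 0.724% of their pairs' reads. The remaining 4 copies, all without mismatches, held from 28.4% (Gm28437 in 1 library) to 73.6% (Gm10222 in another).

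**Figure D3:**
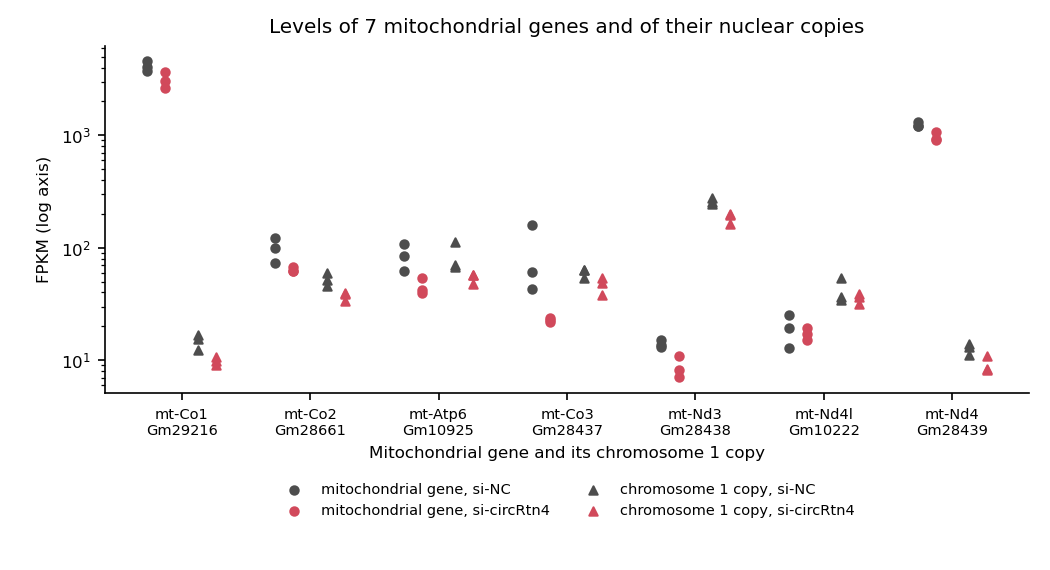
FPKM on a log axis of 7 mitochondrial genes (circles) and of their chromosome 1 copies (triangles), a point for each library. Gm28438 is listed at 17.7 to 27.6 times the level of mt-Nd3, while Gm29216 and Gm28439 lie far below mt-Co1 and mt-Nd4. Reads listed under a copy were not shown to be nuclear.

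Like those of their partners, the estimates of the copies were below 0. Reads of the 5 copies without a mismatch cannot be told apart from mitochondrial reads. The copies are therefore not separate evidence beside their partners. Gm28438 (log2 fold change −0.48, limma adjusted p = 0.0279), Gm29216 (−0.54, limma adjusted p = 0.0304) and Gm28661 (−0.47, limma adjusted p = 0.0463) fell, where 4.82% of all genes tested fell. Gm10925 (−0.59, limma adjusted p = 0.101) and Gm28439 (−0.44, limma adjusted p = 0.0722) missed the threshold, and passed it with the block at 0.0337 and 0.0168. Gm28437 (−0.36, limma adjusted p = 0.149) and Gm10222 (−0.19, limma adjusted p = 0.545) passed neither without nor with the block, and their groups overlapped.

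Reads of each gene and its copy were also summed, which does not depend on how listed reads were split between the pair. A sum does not restore reads that were left out for matching both places, and whether any were left out was not tested. By mean with si-NC, the largest sum wholly inside the span was 117 reads per 1000000 recovered reads (mt-Co3). Those of mt-Co1 and mt-Nd4, which lie partly outside it, were 6417 and 1736. The percentages below therefore describe only the reads that were listed. Summing was chosen after the values had been seen, and the sums were not tested. For mt-Nd3 with Gm28438 the sum was 95.1, 89.99 and 100.6 reads per 1000000 recovered reads with si-NC and 76.0, 71.4 and 59.3 with si-circRtn4, or 72.3% of the si-NC mean. For mt-Co3 with Gm28437 it was 92.1, 84.4 and 173 against 62.5, 49.7 and 55.4, or 47.9%, where mt-Co3 alone was at 25.8%. For listed reads, the percentage of the mt-Nd3 sum thus came near those of the genes outside the span. That of the mt-Co3 sum stayed below them, with si-NC replicate 3 again highest. The sums of mt-Co2, mt-Atp6 and mt-Nd4 did not overlap between groups either, at 68.1%, 59.8% and 78.9%, whereas those of mt-Nd4l (88.8%) and mt-Co1 (77.0%) did. Adding the copies to the 13 mRNA genes left their share of recovered reads at 77.2% of the si-NC mean.

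The tRNA genes gave little to test. Of 22, 16 reached the minimum level, 14 of them with an estimate below 0 and 2 above, and their median log2 fold change was −0.39. With all libraries none passed the limma test without the block. At an unadjusted p under 0.05, 2 were lower and 0 higher, where 12.8% and 13.1% of all genes tested were. With the block 2 fell (mt-Tp and mt-Ty), where 9.75% of all genes fell. With limma-voom mt-Tl2 passed, where 5.69% of all genes fell. These counts of lower tRNA genes were near the shares over all genes. The tRNA genes are 59 to 75 bases long, short for common RNA libraries, and a read counted under a tRNA gene may also come from a longer uncut RNA, so these FPKM are not levels of mature tRNA. The most reads were listed for mt-Tp (proline) and mt-Tl2 (leucine), whose genes are printed without capitals as the only 2 with at least 100 reads in every library.

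mt-Tp chrMT:15356-15422 (minus): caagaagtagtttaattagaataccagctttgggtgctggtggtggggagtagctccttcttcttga

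mt-Tl2 chrMT:11671-11741 (plus): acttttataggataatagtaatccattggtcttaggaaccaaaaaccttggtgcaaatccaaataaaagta

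mt-Tp was at 959, 824 and 1268 FPKM with si-NC and at 711, 634 and 1077 FPKM with si-circRtn4. The ranges overlapped, although each si-circRtn4 library lay below the si-NC library of its number (log2 fold change −0.35, limma adjusted p = 0.388, or 0.0355 with the block). mt-Tl2 was at 409, 440 and 546 FPKM against 250.5, 406 and 247 FPKM. It was the only tRNA gene whose groups did not overlap, and si-circRtn4 replicate 2 lay just under the lowest si-NC library (log2 fold change −0.65, limma adjusted p = 0.0936, or 0.0649 with the block). It passed with limma-voom (adjusted p = 0.0441) and without si-circRtn4 replicate 2 (limma adjusted p = 0.0297).

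The next 4 tRNA genes by reads overlapped between groups. mt-Tl1 (leucine) went from 103 ± 13.1 to 77.4 ± 31.1 FPKM (SD, n = 3), mt-Ts2 (serine) from 103 ± 30.1 to 77.8 ± 8.29, mt-Tn (asparagine) from 103 ± 49.4 to 83.5 ± 26.3 and mt-Tc (cysteine) from 86.0 ± 38.8 to 73.6 ± 20.3. The 2 tRNA genes with an estimate above 0, mt-Tv (valine, 0.85) and mt-Tt (threonine, 0.67), rested on 1.83 and 4.67 reads per library on average, and they are named because of their values. Among the 6 genes not tested, mt-Tf, mt-Td and mt-Tg had 0 reads in every library, which allows up to 3 reads in each by counting error alone, and mt-Ts1, mt-Tk and mt-Tr had at most 1 read in any library. All of these but mt-Tf lie inside the copied span, and all 5 tRNA genes of that span were among them.

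Several tRNA genes varied with the replicate number. Of the 16 tested, 7 were highest in replicate 1 of both groups, and in 6 replicate 1 was at least 1.5 times the mean of the other two libraries in both groups. These 6, named because of this pattern, were mt-Te (glutamate) and the neighbours mt-Tw, mt-Ta, mt-Tn, mt-Tc and mt-Ty (tryptophan, alanine, asparagine, cysteine and tyrosine), which lie side by side between mt-Nd2 and mt-Co1. mt-Tn was at 159, 64.5 and 85.5 FPKM with si-NC and at 114, 68.8 and 67.8 FPKM with si-circRtn4, so that replicate 1 was 2.11 and 1.67 times the mean of the others. mt-Tw was at 75.2, 21.7 and 30.9 FPKM against 61.9, 21.1 and 15.4 FPKM, or 2.85 and 3.39 times. None of the 15 mRNA and rRNA genes reached this factor in both groups.

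**Figure D4:**
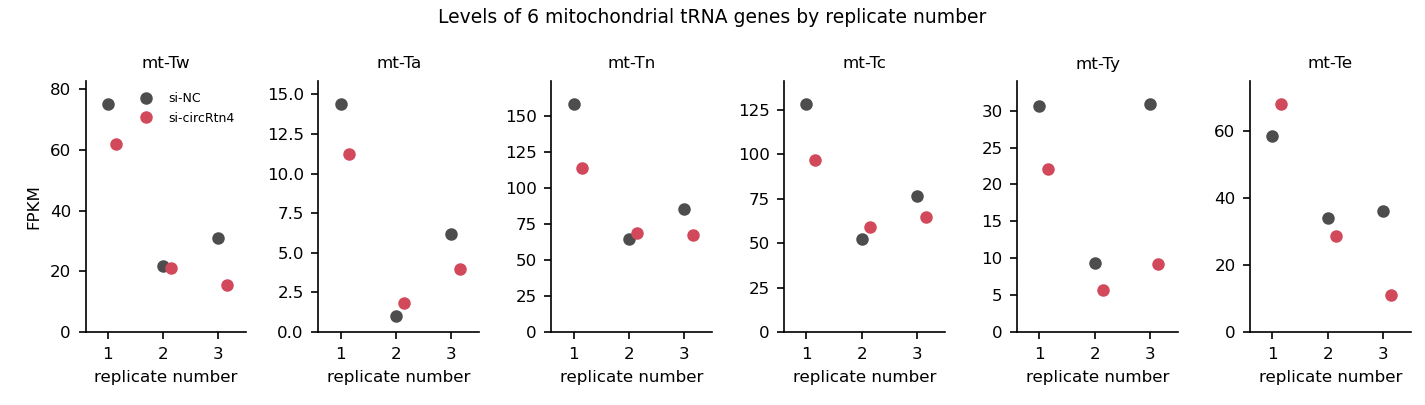
FPKM of 6 mitochondrial tRNA genes in each library, by replicate number, for si-NC (grey) and si-circRtn4 (red). Replicate 1 is at least 1.5 times the mean of the other two libraries of its group in every panel, and the 2 groups overlap in each.

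The classes, and the genes of each annotated strand, kept their proportions while the total fell. Whether the libraries kept strand is not given, so strand here is that of the gene, not of the reads. Of the mitochondrial reads, the mRNA genes held 96.0% with si-NC and 96.2% with si-circRtn4, the rRNA genes 3.35% and 3.17%, and the tRNA genes 0.643% and 0.646%. Genes on the minus strand held 2.92% ± 0.062 and 2.96% ± 0.141 (SD, n = 3), most of it mt-Nd6 with 2.53% and 2.54%. All these shares overlapped between the groups. By class, the share of all recovered reads with si-circRtn4 was 77.3% of that with si-NC for mRNA genes, 73.1% for rRNA genes and 77.1% for tRNA genes, and by strand it was 77.1% for the plus and 78.03% for the minus strand. For the tRNA genes alone it was 71.5% on the plus strand, without overlap, and 80.7% on the minus strand, with overlap. The median log2 fold change was −0.43 for the 23 plus-strand genes tested and −0.37 for the 8 on the minus strand. Differences between classes or strands were described, not tested.

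**Figure D5:**
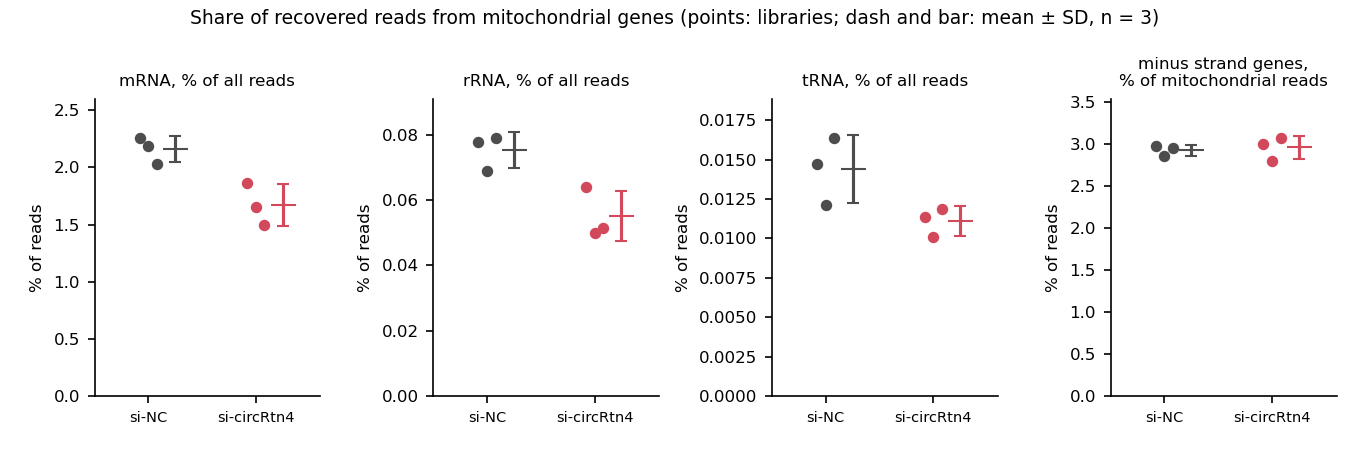
Share of recovered reads on mitochondrial mRNA, rRNA and tRNA genes, and the share of mitochondrial reads on minus-strand genes, with a point for each library and the mean ± SD beside it. The 3 classes are lower with si-circRtn4, at 73.1% to 77.3% of the si-NC mean, while the minus-strand share stays at 2.92% and 2.96%.

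Pairing by number showed the same direction within replicates. For 21 of the 31 genes tested, the si-circRtn4 library was below the si-NC library of its number in all 3 pairs, where 28.3% of all genes tested showed this. These were 12 of 13 mRNA genes, both rRNA genes and 7 of 16 tRNA genes. A gene whose groups do not overlap has the same direction in every pair by necessity. This was so for 15 of the genes, among them all 14 mRNA and rRNA genes counted here. For those genes the pairs add nothing to the comparison of the groups. The exception among the mRNA genes was again mt-Nd4l.

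Nuclear genes that make and process mitochondrial RNA are given by their counts beside those of all genes. Of 24 genes for transcription and maintenance of mitochondrial DNA, 23 were tested, 0 fell, 1 rose and 22 did not pass, where 4.82% of all genes fell and 4.36% rose, with a median log2 fold change of 0.01. The gene that rose was Top1mt, the mitochondrial topoisomerase, at 8.66, 8.18 and 10.2 FPKM with si-NC and 19.3, 20.9 and 16.5 FPKM with si-circRtn4. The groups did not overlap, and this was the largest estimate of the list (log2 fold change 0.99 ± 0.11, SE, limma adjusted p = 0.0035). Mterf1b (0.37) and Mterf1a (0.33), of the transcription termination factor family, were next in size and did not pass (limma adjusted p = 0.227 and 0.287).

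The core of the transcription machinery gave small estimates. Polrmt, the mitochondrial RNA polymerase, was at 13.7 ± 0.618 and 12.8 ± 0.397 FPKM (SD, n = 3; log2 fold change −0.09, limma adjusted p = 0.477). Tfam, which packages mitochondrial DNA and serves at its promoters, was at 15.8 ± 1.03 and 16.1 ± 1.12 FPKM (0.02, limma adjusted p = 0.902). Tfb2m, the initiation factor, was at 11.8 ± 0.451 and 9.79 ± 0.489 FPKM with no overlap, and its call depended on the fit (−0.24, limma adjusted p = 0.0809, or 0.0393 with the block). Tefm, the elongation factor, did not pass (0.15, limma adjusted p = 0.290).

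Of 36 genes for mitochondrial RNA processing, stability and modification, 35 were found, 34 were tested, 1 fell and 2 rose, beside the same 4.82% and 4.36% of all genes, with a median log2 fold change of 0.04. Grsf1, an RNA-binding protein of mitochondrial RNA granules, was at 48.9, 47.5 and 51.0 FPKM with si-NC and at 37.6, 37.2 and 38.04 FPKM with si-circRtn4. It was lower in every si-circRtn4 library (−0.38 ± 0.066, SE, limma adjusted p = 0.0158). Angel2 (0.35, limma adjusted p = 0.0339) and Lactb2, a mitochondrial endoribonuclease (0.35, limma adjusted p = 0.0304), rose. Lrpprc, which stabilizes mitochondrial mRNAs, did not pass (−0.07, limma adjusted p = 0.737), and its partner Slirp was below the minimum level, at 0.317 to 0.911 FPKM. Whether any of these genes had a part in the lower mitochondrial RNA was not tested.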

How the data were processed

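RNA sequencing of 6 N2a libraries was read from 1 deposited table, in which the authors gave FPKM per gene with gene length and coordinates. The submitters' processing notes name Bowtie 0.12.2 and the builds mm8 and mm9, while 98.1% of the genes had the coordinates of GENCODE M21 (GRCm38). The counting tool and its handling of reads with several matches are not given in the sources used here. A further 6 columns belong to other samples and were left aside.

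The product of FPKM and gene length was divided by a step, taken as 1 read, that was fitted in each library. The result was a whole number for 100.0% of values in each library (tolerance 0.05 read). These recovered reads totalled 13541198 to 15122063 per library. They have no molecular identifiers, and the limit of 3 reads given for a count of 0 covers counting error only. The 95% intervals come from limma and measure the spread between libraries. Log2(FPKM + 1) was tested with limma 3.58.1 in R 4.3.3 (lmFit, eBayes with trend) on the 12749 genes whose mean reached 1 FPKM, with Benjamini-Hochberg adjustment over all of them, and genes with an adjusted p under 0.05 were called. Fold changes on this scale understate the change of low genes. Two-sided exact permutation tests were run on single genes. Read shares were described without a test. The fit was tested on simulated data.

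Between libraries of the same number, deviations from their group means had correlations of 0.331, 0.190 and 0.226 (at most 0.009 otherwise), so replicate numbers were taken as pairs and a fit with them as a block is given beside the unblocked one. Neither the labels nor the paper say what a number stands for.

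Named were all mRNA and rRNA genes of chromosome MT, the 6 tRNA genes with the most reads, all chromosome 1 copies, the 3 genes of each list with the largest change, Polrmt, Tfam, Tfb2m, Tefm, Lrpprc, Slirp and Rtn4. Members and lists were chosen with earlier results of these data known. Prorp was not found under that symbol, and some markers of the N2a list are not reported here. Copies were compared through GENCODE M21 transcripts. Alternatives were another pseudocount, no filter, other scalings, limma-voom on the recovered reads, the block and leaving out each library. Python 3.11.15 with numpy 2.4.6, pandas 2.3.3, scipy 1.17.1 and matplotlib 3.10.9 was used.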

Additional observations from a re-analysis of the deposited data

How the results depend on the processing

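Of the 5 genes called lower, the number became 0 without a filter on low values (8 at an unadjusted p under 0.05, of 34 tested), 3 after rescaling to TPM, 15 with the replicate block and 12 with limma-voom on recovered reads. The count was 6 with a pseudocount of 0.1, with rescaling by nuclear reads and with TPM without Gm23935, 7 with quantile normalization, and from 1 to 5 with 1 library left out. No gene was called higher under any of these. The median log2 fold change of the 13 mRNA genes stayed between −0.50 and −0.33. Over the 31 genes and 14 alternatives, 362 of the single-gene values kept their direction and their side of the threshold, mt-Cytb had no change with quantile normalization, 31 passed the threshold, 31 lost it and 9 changed sign. Those that changed sign were mt-Ta after rescaling to TPM (0.0047) and 6 genes with 1 library left out, whose values ran from −0.92 to 0.55 (mt-Ta), −0.52 to 0.12 (mt-Tn), −0.46 to 0.18 (mt-Tc), −1.001 to 0.074 (mt-Tw), −0.34 to 0.11 (mt-Nd4l) and −1.18 to 0.090 (mt-Te). Leaving out a library leaves fewer samples, and testing without a filter adds low genes to the adjustment; the cause of the other shifts was not tested. Depth limits mt-Atp8 and the tRNA genes with few reads, and the unknown handling of reads that match the nuclear copy limits the genes inside its span.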
